A study of Mus musculus with 30 samples.

Results

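Polyamine metabolism genes were followed through RNA-seq of mouse quadriceps. The genes were chosen by name as synthesis and breakdown genes of the pathway that are abundant in this muscle, and numbered 8 of the 56748 genes in the count table: *Odc1*, *Amd1*, *Srm*, *Sms*, *Azin1*, *Sat1*, *Smox* and *Paox*. All 8 passed the filter on low counts and were among the 17518 genes tested.

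The study asked how pacDNA-L9, a bottlebrush polymer carrying the antisense oligonucleotide L9, acts in HSA-LR mice, a model of myotonic dystrophy type 1 (DM1). L9 consists of 3 CAG units of locked nucleic acid and is complementary to the CUG repeat RNA. The data are 30 libraries of poly(A)-selected quadriceps RNA, each taken here as 1 mouse; the labels do not tie libraries to animals, and p-values measure the spread between these libraries. HSA-LR20b mice carry a human skeletal actin transgene with a long CTG repeat, so the repeat RNA is made in muscle fibres and not under the promoter of the human disease gene.

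The WT group held 5 untreated FVB/N mice without the transgene, and the NT group held 8 untreated HSA-LR mice. All other mice were HSA-LR and were injected by tail vein. Of these, 10 mice received pacDNA-L9: 4 were given a dose of 5.3 mg/kg, 3 a dose of 21.2 mg/kg and 3 the highest dose, 42.4 mg/kg. Free L9 went to 3 mice at 5.3 mg/kg. The pacDNA-Scr group, in which the polymer carries a scrambled oligonucleotide, held 2 mice at 5.3 mg/kg, and the Brush group, given 40 nmol of the polymer alone, held 2. The mice were 8 weeks old, and muscle was taken 2 weeks after the last injection. The higher doses of pacDNA-L9 were reached by repeated injections, so dose and number of injections cannot be told apart. Sex was not in the labels. Reads of *Xist*, set against those of 4 genes on the Y chromosome (*Uty*, *Kdm5d*, *Eif2s3y* and *Ddx3y*), gave 20 female and 10 male libraries. The NT group held 4 of each sex, the WT group 4 female mice and 1 male mouse, and the 42.4 mg/kg group 3 female mice.

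Library totals ran from 13605309 to 26956558 counts. The labels number 2 deposited sets separately, 24 libraries and 6 libraries. The sets stood apart on the first principal component, which took 60.1% of the variance, and the set was a term in every main fit. The second set holds 2 NT mice, 2 mice at 5.3 mg/kg, 1 at 21.2 mg/kg and 1 given free L9, and its labels name no strain. In 5 of these 6 libraries each mitochondrial gene was listed at 0. Fibre genes were abundant in every library, the 10 muscle markers summing to between 106900 and 177100 CPM, counts scaled to the TMM-adjusted library size.

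Polyamines are small positively charged molecules that bind RNA and DNA and are needed for growth. Ornithine is decarboxylated to putrescine, and aminopropyl groups taken from decarboxylated S-adenosylmethionine extend putrescine to spermidine and then to spermine. Synthesis is held in check by antizymes, which send ornithine decarboxylase to the proteasome, and breakdown runs through acetylation and oxidation; in rodents several of these steps respond to androgens.

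The members were placed by GENCODE on GRCm39. The synthesis genes were *Odc1* (ENSMUSG00000011179, chr12:17594383-17601507, plus strand), ornithine decarboxylase; *Amd1* (ENSMUSG00000075232, chr10:40162797-40178185, minus strand), S-adenosylmethionine decarboxylase; *Srm* (ENSMUSG00000006442, chr4:148675940-148681792, plus strand), spermidine synthase; and *Sms* (ENSMUSG00000071708, chrX:156226848-156275317, minus strand), spermine synthase. *Azin1* (ENSMUSG00000037458, chr15:38487539-38519785, minus strand) encodes antizyme inhibitor 1, which binds antizyme and so spares ornithine decarboxylase. The breakdown genes were *Sat1* (ENSMUSG00000025283, chrX:153996128-153999452, minus strand), the spermidine/spermine acetyltransferase; *Smox* (ENSMUSG00000027333, chr2:131333416-131368431, plus strand), spermine oxidase; and *Paox* (ENSMUSG00000025464, chr7:139695712-139717169, plus strand), the peroxisomal oxidase of acetylated polyamines.

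Since L9 pairs with CUG repeats, the canonical transcript of each member was searched, in the sense direction, for CTGCTGCTG and for its shorter pieces. No member holds the whole 9 bases, which 14.9% of the canonical transcripts of tested genes do. *Odc1*, *Amd1*, *Azin1* and *Paox* hold a run of 8 of these bases, as do 36.0% of those transcripts. The windows below are from the GENCODE transcripts on GRCm39, with the matching run in capitals, and are shown because they are the closest matches to the L9 target among the members.
Odc1, exon 11 of 12, coding, chr12:17600000-17600029, plus strand: catacactgtTGCTGCTGCTtctactttca
Amd1, exon 8 of 8, 3′ UTR, chr10:40162985-40163014, minus strand: aatggaagaggTGCTGCTGgctctgcatcc
Azin1, exon 1 of 12, 5′ UTR, chr15:38519405-38519434, minus strand: tccttctcgctCTGCTGCTctgcggagtga
Azin1, exon 1 of 12, 5′ UTR, chr15:38519300-38519329, minus strand: tgccgccgccaCTGCTGCTcagctggtgtc
Paox, exon 7 of 7, 3′ UTR, chr7:139714060-139714089, plus strand: gctgtgagtgcCTGCTGCTctgctccacca
The capitals in *Odc1* span 10 bases because a pair of 8-base matches overlap there. The longest matches were 7 bases in *Sms* and *Smox* and 6 bases in *Srm* and *Sat1*. A match is a description of the letters and not evidence of binding.

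Some members share sequence with near-identical copies, among which reads can be split. *Amd2* matches *Amd1* at 99.6% over 3202 aligned bases and holds 16.3% as many counts as *Amd1*. The *Odc1* copy *Gm7993* matches at 95.7% over 1388 bases and holds 42.9% as many counts. *Sms-ps* is identical to *Sms* over 1101 bases with 17.4% as many counts, and *Gm19680* matches *Paox* at 99.9% over 1358 bases with 36.7% as many. Adding the copies to the members changed no call of a member in any of the 10 comparisons. Exons of other genes on the opposite strand cover 7.9% of the exon bases of *Azin1*, 4.0% of *Odc1*, 3.5% of *Smox* and 1.8% of *Paox*, and the kit and counting were not stated to keep strand.

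In NT muscle, levels per kilobase of annotated exon put the decarboxylases and spermine synthase at the top. *Amd1* was at 42.7 ± 26.8 CPM per kilobase (SD, n = 8), *Odc1* at 22.1 ± 5.43 and *Sms* at 19.5 ± 5.34. The ranges of these genes overlap, so their order is not fixed, and with the longest transcript as the length *Sms* stands ahead of *Odc1*. *Sat1* was at 8.70 ± 1.40, *Smox* at 7.91 ± 4.08 and *Azin1* at 7.20 ± 2.55 CPM per kilobase, which do not differ beyond their spread. *Srm* was far lower, at 2.34 ± 0.630, and *Paox* was lowest, at 0.478 ± 0.0817 CPM per kilobase.

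**Figure D1:**
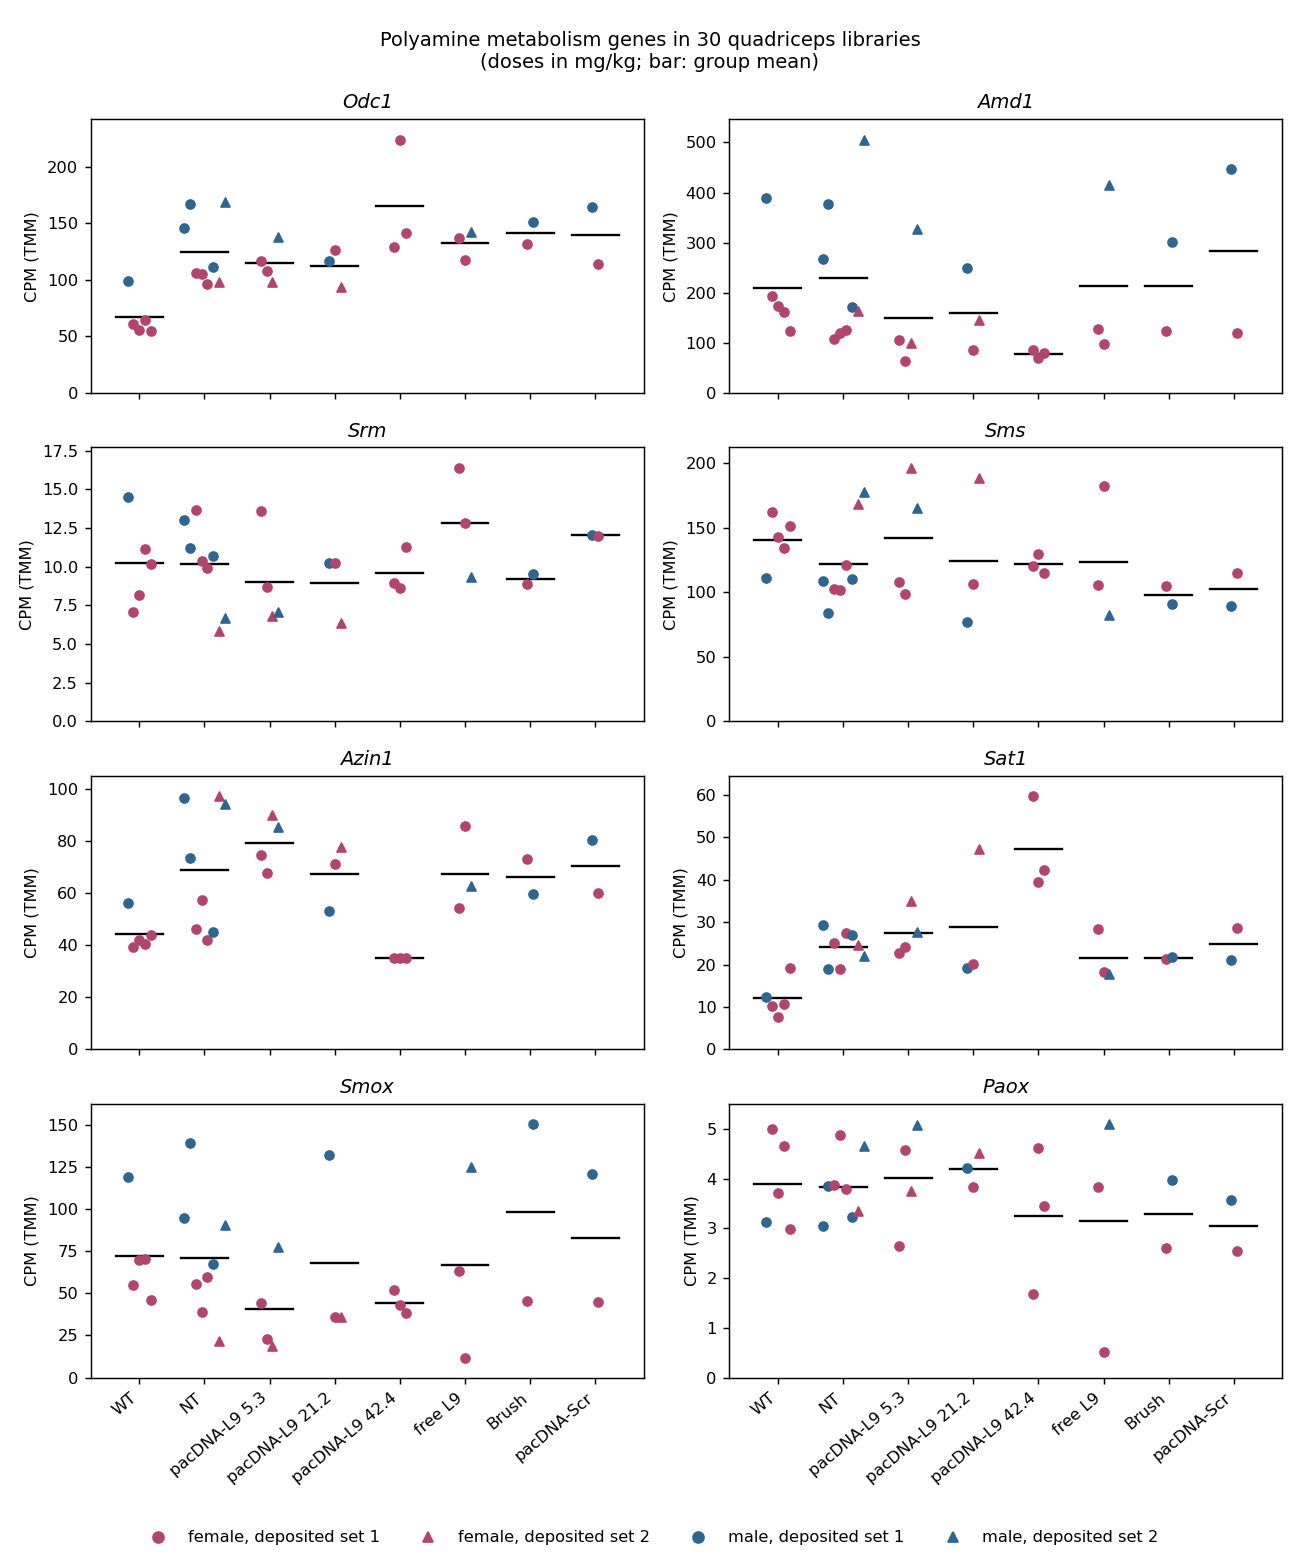
TMM-normalised CPM (vertical axes, each from 0) of the 8 polyamine metabolism genes in each of the 30 libraries, by group. Colour marks the sex read from the counts, circles the first and triangles the second deposited set, and bars group means. *Amd1* and *Smox* split by sex within groups, *Odc1* and *Sat1* have their lowest group means in WT, and at 42.4 mg/kg *Sat1* has its highest and *Azin1* sits near 35.2 CPM in all 3 mice.

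Among the members, female and male libraries differed most in *Smox*, the spermine oxidase, and *Amd1*, the decarboxylase of S-adenosylmethionine. *Amd1*, *Smox* and *Odc1* were lower in female than in male muscle, and the other 5 members did not pass the test. These 3 calls of 8 members stand against 1.12% of the 17518 genes tested that were called in either direction, and 0.736% that were called lower in female libraries, with 0.388% higher (edgeR's quasi-likelihood test with group, set and sex as terms, Benjamini-Hochberg adjusted p under 0.05).

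*Amd1* lay between 63.3 and 193.5 CPM in the 20 female libraries, with a median of 119.0 CPM. In the 10 male libraries it lay between 171.3 and 505.8 CPM, with a median of 352.4 CPM. In each of the 7 groups that held both sexes, every male library was above every female library. The female to male difference was -1.39 on the log2 scale (SE 0.12, 2.62-fold lower, adjusted p = 3.77e-08 by edgeR's quasi-likelihood test).

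*Smox* ranged from 11.8 to 70.3 CPM in female libraries, with a median of 44.6 CPM. In male libraries it ranged from 67.1 to 150.4 CPM, with a median of 119.9 CPM. Again no group with both sexes showed an overlap, and 0.154% of all tested genes had every male library above every female library in all 7 groups. The difference was -1.47 (SE 0.20, 2.77-fold lower, adjusted p = 0.000102, edgeR). *Amd1* and *Smox* thus moved in the same direction with sex although one feeds synthesis and the other returns spermine to spermidine.

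*Odc1* was between 55.1 and 224.0 CPM in female libraries and between 98.9 and 169.0 CPM in male libraries, so the pooled ranges overlap. Within groups, male libraries were above female ones in 6 of 7 groups, the exception being 21.2 mg/kg. The share of all genes with 6 such groups was not counted. The difference was smaller than for *Amd1*, at -0.44 (SE 0.10, 1.36-fold lower, adjusted p = 0.0163, edgeR). It missed the threshold without the male WT mouse (adjusted p = 0.0732), without NT 7 (adjusted p = 0.0513) and in the first deposited set alone (adjusted p = 0.183).

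The differences in *Amd1* and *Smox* were also fitted within each deposited set, with the sexes compared inside the set. In the first set, where 0.423% of genes were called, the differences were -1.35 (SE 0.15) for *Amd1* and -1.24 (SE 0.26) for *Smox*, with adjusted p = 4.57e-05 and 0.0297 (edgeR). In the 6 libraries of the second set they were -1.65 and -2.05. That fit rests on the NT and 5.3 mg/kg groups alone, with 1 library of each sex in each group. Its 21.2 mg/kg and free L9 groups hold 1 library each, so only the size of the difference is given. The difference between the sets was not significant for any member, nor was it for any of the tested genes (adjusted p = 1 for *Amd1* and *Smox*, interaction term in edgeR). Among the 8 NT mice alone the differences were -1.32 for *Amd1* and -1.23 for *Smox*, with adjusted p = 0.0622 and 0.149.

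The 5 members that did not pass had differences between -0.16 (*Srm* and *Paox*) and 0.34 (*Sms*, SE 0.12, adjusted p = 0.195). *Sms* and *Sat1* are on the X chromosome, and their female to male differences were 0.34 and 0.18 (SE 0.15). The copy *Amd2* was also lower in female libraries, with a difference of -1.43 (SE 0.14, adjusted p = 3.13e-07). It was the only called gene among 27 tested of a wider list of 30 polyamine pathway genes, while 1.12% of all tested genes were called. The list covers arginine and ornithine supply, minor enzymes, antizymes, transport, S-adenosylmethionine supply and salvage, and hypusine formation. *Mat2a*, which makes S-adenosylmethionine in muscle, had a difference of -0.41 (SE 0.13, adjusted p = 0.13). The 6 adipocyte markers had a median female to male difference of 1.69 and none was called, and the part of fat or any other tissue in the sex difference was not tested.

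**Figure D2:**
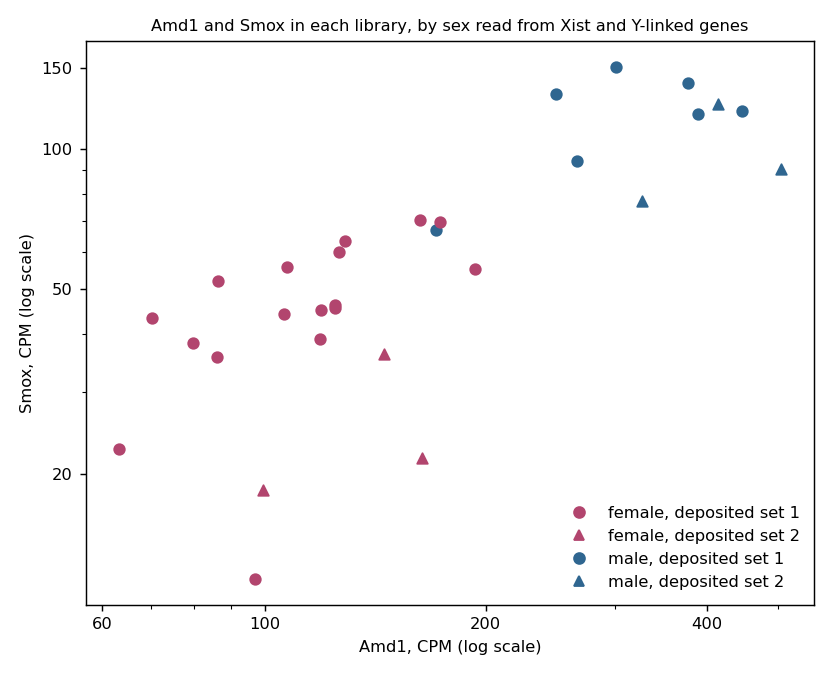
*Amd1* (horizontal, log scale) against *Smox* (vertical, log scale) in CPM, 1 point per library. Male libraries lie at 171.3 CPM of *Amd1* or above and at 67.1 CPM of *Smox* or above, and the lowest of them, NT 6, lies among the highest female libraries.

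Across the 24 libraries of the first set, *Amd1* and *Smox* had the highest correlation of any 2 members (r = 0.84 on log2(CPM + 0.5), over libraries that differ in sex and group). *Amd2* was the gene most like *Amd1* (r = 0.964), followed by *Smox* and by the Y-linked *Ddx3y* (r = 0.839). For *Smox* the order was *Fam131a* (r = 0.939), *Amd2* (r = 0.854) and *Amd1*. These values describe libraries that share their deposited set and carry no test.

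The comparison of NT with WT sets untreated HSA-LR mice against untreated FVB/N mice. The transgene cannot be told apart from other differences between these lines, and the sexes are spread unevenly over these groups. *Odc1* and *Sat1*, the entry points of synthesis and of breakdown, were higher in NT muscle, each by nearly 1 on the log2 scale, and no member was lower. Of the 17518 genes tested, 5.31% were called in either direction 3.64% higher and 1.67% lower, against these 2 of 8 members. The median difference was 0.04 over the members and -0.03 over all genes. No member separated the WT from the NT libraries without overlap, as 3.08% of tested genes did with NT higher and 1.64% with NT lower.

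*Odc1* was at 98.9, 60.7, 55.5, 64.5 and 55.1 CPM in the 5 WT libraries. In the 8 NT libraries it lay between 96.5 and 169.0 CPM, with a median of 108.7 CPM. The highest WT value belongs to the male WT mouse, WT 1, and the other 4 WT libraries were below every NT library. The rise was 0.89 (SE 0.18, 1.85-fold, adjusted p = 0.00272, edgeR).

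Among female libraries *Odc1* showed a similar gap, while the 1 male WT library allows no such comparison in males. Female WT libraries averaged 58.9 ± 4.47 CPM (SD, n = 4) and female NT libraries 101.5 ± 4.83 CPM (SD, n = 4), without overlap. How many of all genes separate the female libraries in this way was not counted. In female libraries alone, where 2.13% of genes were called, the difference was 0.84 (SE 0.16, adjusted p = 0.00894, edgeR). The copy *Gm7993* was also higher in NT, by 0.79 (SE 0.20, adjusted p = 0.0151), and reads of this pair may have been split between them.

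*Sat1* was at 12.5, 10.2, 7.62, 10.8 and 19.1 CPM in WT and between 18.9 and 29.4 CPM in NT, with a median of 24.8 CPM. The groups overlap through a single WT library, the one whose column could not be tied to a numbered WT sample, which was above the lowest NT libraries. The rise was 0.95 (SE 0.22, 1.93-fold, adjusted p = 0.00679, edgeR). In female libraries alone the difference was 0.89 (SE 0.28) and missed the threshold, with adjusted p = 0.142. In the first deposited set alone, where 5.45% of genes were called, both *Odc1* (0.87, adjusted p = 0.00493) and *Sat1* (1.03, adjusted p = 0.00304) kept their calls.

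*Azin1*, whose product spares ornithine decarboxylase, lay between 39.2 and 56.0 CPM in WT and between 41.9 and 97.2 CPM in NT. The upper NT libraries were well above WT and the lower ones were within it, and the difference of 0.52 (SE 0.18, adjusted p = 0.105, edgeR) did not pass; without NT 5 it was 0.60 and passed (adjusted p = 0.0478). *Sms* had a difference of -0.39 (SE 0.18, adjusted p = 0.275), which passed without free L9 C (-0.45, adjusted p = 0.0349) and in the fit of only the groups compared (-0.42, adjusted p = 0.0239). The levels of *Srm*, *Paox* and *Smox* differed by 0.14, -0.11 and -0.05, and none passed.

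*Amd1* had a wide error in this comparison. With group and set in the model its difference was -0.15 with an SE of 0.43. With sex as a further term it was -0.51 with an SE of 0.16 and adjusted p = 0.0686 (edgeR), which did not pass, and with a further term for the naming of libraries in the table it was -0.52 and passed (adjusted p = 0.0257). Female WT libraries lay between 124.6 and 193.5 CPM and female NT libraries between 107.1 and 163.8 CPM, so they overlap. The calls of *Odc1* and *Sat1* were kept with the sex term, under which 5.55% of genes were called, at 0.79 (adjusted p = 0.000571) and 0.99 (adjusted p = 0.00478).

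In the wider pathway list 2 of 27 tested genes were called, both lower in NT muscle, where 5.31% of all tested genes were called and 1.67% were lower. Both belong to methylthioadenosine salvage, which recycles the by-product of spermidine and spermine synthesis. *Mtap*, the phosphorylase that opens this route, was between 16.5 and 19.8 CPM in WT and between 6.74 and 11.1 CPM in NT, without overlap. Such a separation, with NT lower, was shown by 1.64% of all tested genes. *Mtap* fell by 0.83 on the log2 scale (SE 0.16, adjusted p = 0.0014, edgeR). *Adi1*, a later enzyme of the route, fell by 0.31 (SE 0.09, adjusted p = 0.0489) and lost the call with the sex term (adjusted p = 0.0623). Of the same route *Enoph1* was at -0.32 (SE 0.14), *Apip* at -0.12 (SE 0.14) and *Mri1* at 0.21 (SE 0.16), and none of them passed. Nor did the remaining genes of the list, with *Oaz1* at 0.12 (SE 0.22) and *Oat* at -0.25 (SE 0.13).

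Bulk RNA cannot tell fewer cells of a type from less RNA per cell. In NT against WT, 1 of 8 macrophage markers and 2 of 10 muscle fibre markers were called higher, as were 3.64% of all tested genes. None of the adipocyte, endothelial, fibroblast, satellite cell or red blood cell markers passed. The summed macrophage markers lay between 31.3 and 53.3 CPM in WT and between 43.6 and 85.0 CPM in NT. The part of these cells in the rise of *Sat1* was not tested.

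**Figure D3:**
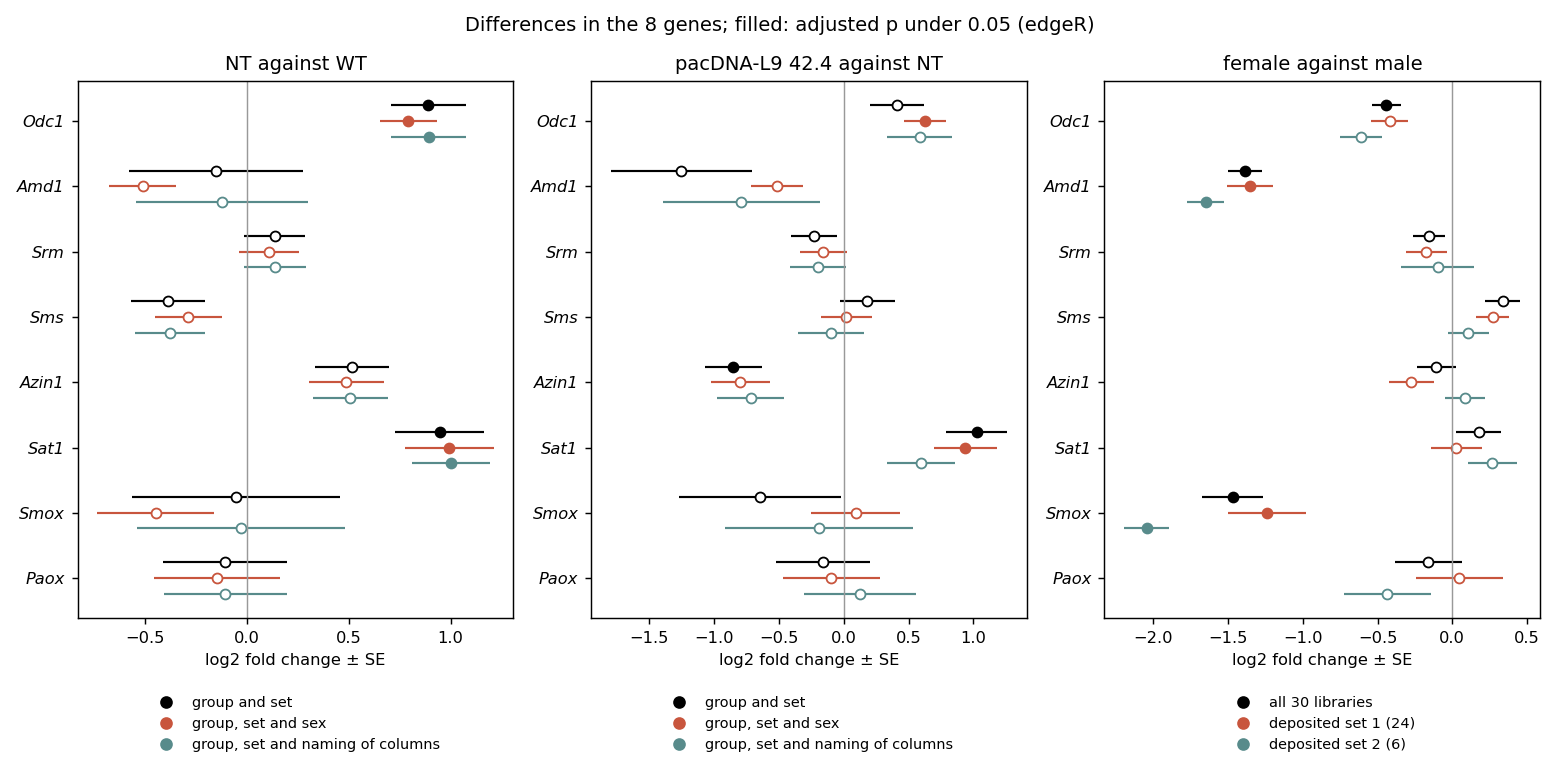
Log2 fold changes with SE of the 8 genes in NT against WT, in 42.4 mg/kg pacDNA-L9 against NT and in female against male libraries, filled where the adjusted p was under 0.05 (edgeR). In NT against WT *Odc1* and *Sat1* are filled in all 3 fits, and at 42.4 mg/kg no gene is filled in all 3. Between the sexes *Amd1* and *Smox* are filled in the first deposited set. For the second set only the size of the difference should be read, not the fill. That fit has too few libraries of each sex per group to decide a call.

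At 42.4 mg/kg pacDNA-L9, the highest dose, *Sat1* was higher and *Azin1* was lower than in NT muscle. The other 6 members did not pass. Of all tested genes 2.28% were called higher and 0.862% lower, 3.14% together. The median difference was -0.19 over the members and -0.02 over all genes.

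*Sat1* was at 59.7, 39.4 and 42.3 CPM in the 3 mice, against at most 29.4 CPM in NT. All 3 mice were above every NT library, a separation that 3.95% of all tested genes showed in this direction. The rise was 1.02 (SE 0.24, 2.03-fold, adjusted p = 0.0110, edgeR), and without the mouse at 59.7 CPM it was 0.81 with adjusted p = 0.132. The values at this dose are thus further from those of WT than the NT values are.

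*Azin1* was at 35.1, 35.2 and 35.2 CPM, below every NT library and also below every WT library. The 3 values differ by less than 0.1 CPM, while NT libraries span 41.9 to 97.2 CPM. The fall was -0.85 (SE 0.22, 1.80-fold lower, adjusted p = 0.0266, edgeR). The lower separation from NT was shared by 3.05% of all tested genes, and the call was lost without NT 1 (adjusted p = 0.0553) or without any 1 of the 3 treated mice (adjusted p from 0.0903 to 0.181).

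*Amd1* was at 86.5, 70.2 and 80.0 CPM at 42.4 mg/kg, also below every NT library, but these mice are all female. Its difference of -1.25 had an SE of 0.54 and adjusted p = 0.295 (edgeR). With sex in the model it was -0.52 (SE 0.20, adjusted p = 0.221). Female NT libraries started at 107.1 CPM, so the 3 treated mice were also below every female NT library. Of all tested genes 3.05% lay below every NT library at this dose, and the share below the female ones was not counted.

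*Odc1* was at 128.9, 224.0 and 141.7 CPM, which overlaps the male NT libraries and lies above the female ones. The highest female NT library was at 105.9 CPM, and the share of all genes separated from the female libraries in this way was not counted. *Odc1* was not called in the main fit. Its difference was 0.41 (SE 0.21, adjusted p = 0.409), and with sex as a further term it was 0.62 (SE 0.16) and passed, with adjusted p = 0.0295 (edgeR). Its copy *Gm7993* passed in the same fit, at 0.84 (SE 0.20, adjusted p = 0.0151). In that fit 3.13% of genes were called, *Sat1* kept its call at 0.94 (adjusted p = 0.0308) and *Azin1* just lost it at -0.80 (adjusted p = 0.0539). The count of members called was 2 in both fits, but the members were not the same.

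All 3 mice at 42.4 mg/kg are among the 9 libraries whose columns in the count table are named by group and running number alone. With a term for that naming, 1.37% of genes and none of the 8 members were called, *Sat1* being at 0.60 (adjusted p = 0.384) and *Azin1* at -0.72 (adjusted p = 0.227). In the first deposited set alone, where 2.7% of genes were called, *Sat1* kept its call (0.93, adjusted p = 0.0233) and *Azin1* was at -0.79 (adjusted p = 0.0691). In female libraries alone, with 0.814% of genes called, *Sat1* was at 1.09 (SE 0.29, adjusted p = 0.109) and *Azin1* at -0.60 (SE 0.19, adjusted p = 0.192), and neither passed.

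Of the 27 tested genes of the wider pathway list only *Slc7a2*, a transporter of arginine and ornithine, was called at this dose. Of all tested genes 3.14% were called, 2.28% of them higher in treated muscle as a share of all tested. *Slc7a2* was at 88.0, 125.3 and 190.8 CPM in these mice against 59.2 to 109.4 CPM in NT, so the ranges overlap. It rose by 0.84 (SE 0.19, adjusted p = 0.00831, edgeR), and it kept the call with the sex term (adjusted p = 0.0132) and with the naming term (adjusted p = 0.0123). In female libraries alone it was at 0.87 (SE 0.24) and did not pass (adjusted p = 0.113). The salvage gene *Mtap*, lower in NT than in WT, was at 10.2 to 12.0 CPM and did not pass with any of these terms.

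Macrophage markers moved with this comparison. Of the 8, 6 were called higher at 42.4 mg/kg and 2 did not pass. Of 4 red blood cell markers 1 was called higher, and of all tested genes 2.28% were. The macrophage sum lay between 122.3 and 178.0 CPM against 43.6 to 85.0 CPM in NT. No macrophage marker was at 0 in more than 1 of the 30 libraries. The Brush mice had sums of 106.1 and 119.3 CPM with *Sat1* at 21.4 and 21.7 CPM, which is within the NT range. At 5.3 mg/kg the sums lay between 81.7 and 104.6 CPM with *Sat1* between 22.6 and 34.9 CPM. At 21.2 mg/kg they lay between 71.2 and 131.3 CPM with *Sat1* between 19.3 and 47.2 CPM. The pacDNA-Scr sums were 59.5 and 83.8 CPM with *Sat1* at 21.1 and 28.6 CPM. The part of macrophages in the rise of *Sat1* was not tested. The genes most like *Sat1* over the 24 libraries of the first set were *Hspb1* (r = 0.927), *Atf3* (r = 0.921) and *Gramd2b* (r = 0.913), the first a small heat shock protein and the second a stress-induced transcription factor.

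The remaining comparisons addressed lower doses and the parts of the conjugate, and none of the 8 members was called in any of them. Percentages of all tested genes called were 0.0 at 5.3 mg/kg, 0.0685 at 21.2 mg/kg, 0.942 for free L9, 0.0 for Brush and 0.0 for pacDNA-Scr, each against NT. Where no gene was called, 277 genes at 5.3 mg/kg, 329 for Brush and 270 for pacDNA-Scr had an unadjusted p under 0.05 (edgeR). Each count is below a share of 0.05 of the 17518 genes tested, the share that chance would give. The p-values of these fits thus run high, and the counts are not evidence of no effect. In fits of only the groups compared, the counts in the same order were 599, 451 and 488 genes (edgeR). DESeq2 called 5, 5 and 0 genes (0.0154%, 0.0154% and 0.0% of those it tested).

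*Sat1* was at 22.6, 24.0, 34.9 and 27.7 CPM at 5.3 mg/kg and at 19.3, 20.1 and 47.2 CPM at 21.2 mg/kg. Most of these values are within the NT range, and the highest of each group is a library of the second set. Its differences were 0.09 (95% interval -0.38 to 0.56) and 0.18 (-0.34 to 0.69), so a rise as large as that fitted at 42.4 mg/kg lies outside both intervals.

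*Azin1* was between 67.7 and 89.9 CPM at 5.3 mg/kg and between 53.2 and 77.5 CPM at 21.2 mg/kg, within the NT range. Its differences were 0.13 (-0.26 to 0.51) and -0.05 (-0.48 to 0.38). The fall fitted at 42.4 mg/kg is outside both intervals here too, but the doses were not tested against each other. The treated groups share the NT libraries, so these differences are not independent of each other.

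Free L9 and pacDNA-L9 were compared at the same dose of 5.3 mg/kg, where 0.719% of all tested genes were called. The smallest adjusted p among the members was that of *Srm*, with a difference of -0.39 (95% interval -0.80 to 0.02, adjusted p = 0.465). Its values with free L9 were 16.4, 12.9 and 9.30 CPM, and with pacDNA-L9 they were 13.6, 8.68, 6.78 and 7.05 CPM, which overlap. Intervals for *Amd1* and *Smox* were wide, from -1.76 to 0.57 and from -2.11 to 0.69, and each of these groups holds both sexes.

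One library given free L9, free L9 B, stood apart in several members. It had the lowest *Smox* (11.8 CPM) and the lowest *Paox* (0.505 CPM) of all 30 libraries, and its *Sms* of 182.2 CPM exceeded those of free L9 A and C, at 105.2 and 82.4 CPM. No call of a member rested on free L9 B, which had the most mitochondrial counts of the 30 libraries (3745588 of 16782911). Free L9 C had the lowest total, 13605309 counts, and it alone in the second set held mitochondrial counts (1628217). It was at 106.5 on the first principal component, where the rest of its set lay between 138.2 and 142.8. Its *Sms* of 82.4 CPM was below the 165.1 to 196.5 CPM of the other libraries in that set.

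Against pacDNA-Scr at the same dose, *Amd1* differed by -1.56 (95% interval -2.92 to -0.20). No gene was called among 17518, and DESeq2 called 0. An unadjusted p under 0.05 was found for 268 genes (edgeR), again below the share that chance would give and not evidence of no effect. *Amd1* was at 106.4, 63.3, 99.4 and 327.1 CPM with pacDNA-L9 and at 447.2 and 119.2 CPM with pacDNA-Scr. The high value of each group is its only male mouse, and with sex in the model the difference was not called either.

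**Figure D4:**
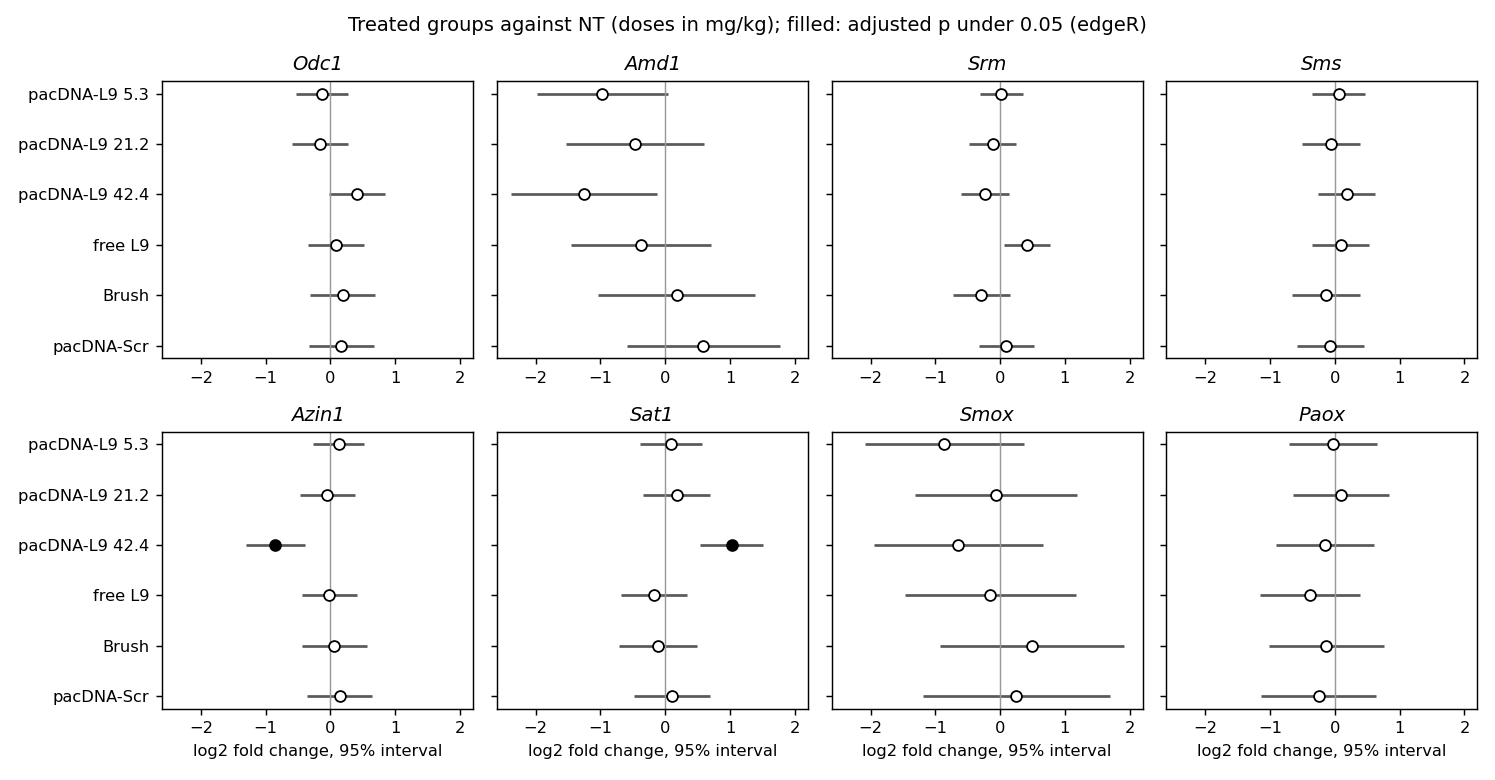
Log2 fold changes with 95% intervals of the 8 genes in each treated group against NT, which all share the NT libraries. Only *Azin1* (-0.85) and *Sat1* (1.02) at 42.4 mg/kg are filled (adjusted p under 0.05, edgeR), and the widest intervals are those of *Amd1* and *Smox*.

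*Srm* and *Paox*, the members with the lowest levels per kilobase, were not called in any of the 10 comparisons. *Srm* ran from 5.85 to 16.4 CPM over the 30 libraries and *Paox* from 0.505 to 5.10 CPM. *Sms* ran from 76.9 to 196.5 CPM, and its 6 highest libraries were free L9 B and 5 of the 6 libraries of the second set. The 95% interval of the *Paox* difference ran from -0.74 to 0.53 in NT against WT and from -0.92 to 0.60 at 42.4 mg/kg, and neither difference passed.

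For the other members the most alike genes were *Gm7993* (r = 0.903) and *Gm32219* (r = 0.901) for *Odc1*, *Fsd1l* (r = 0.887) and *1110002E22Rik* (r = 0.883) for *Azin1*, *Rras* (r = 0.74) for *Srm*, *Tmem209* (r = 0.898) for *Sms* and *Thoc3* (r = 0.879) for *Paox*, over the same 24 libraries. Among pairs of members other than *Amd1* with *Smox*, *Odc1* with *Sat1* was at r = 0.668 and *Odc1* with *Amd1* at r = 0.013.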

How the data were processed

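Gene counts of 30 libraries were taken as deposited by the authors in 1 table of raw counts. Per the labels and the study's methods the RNA was poly(A)-selected and sequenced as paired ends, and the submitters' notes name HISAT2 2.0.5, DESeq2 and GRCm39; counting options and strand are not given in the sources used here. Columns were tied to samples by the names in the labels. The column of 1 WT library has no exact match and was used as an unnumbered WT replicate.

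Counts were analysed in edgeR 4.0.16 (R 4.3.3) with TMM normalisation, filterByExpr and the robust quasi-likelihood test, with 8 groups and the deposited set as terms over all 30 libraries. The female against male comparison added sex. P-values were Benjamini-Hochberg adjusted over 17518 genes, with a threshold of 0.05 and no fold limit. SE values are the log2 fold change over the root of F, and 95% intervals use 21 degrees of freedom. CPM values are TMM-scaled. Totals had a median of 20141850 counts; 56017 gene IDs matched GENCODE vM39. Copies were sought with blastn 2.17.0 (identity of at least 90% over at least 300 bases) and added to a member at 95% and 900 bases or more. Correlations used log2(CPM + 0.5) over genes averaging 5 CPM or more, and the 3 most alike genes of each member were kept, of which 1 to 3 are named.

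The members, the gene lists and the tests were chosen with earlier results of these data known. All 8 members are described, and pathway genes are named where they were called or as examples of their group. Alternatives covered set, sex and naming terms, DESeq2 1.42.0, other scalings, no filter, only the groups compared, no robust step, each library left out and a replicate block. Those added after seeing the data were the first set with a sex term, naming and sex terms together, the second set alone for sex, the sex by set interaction and the added copies. Steps were tested on simulated data.

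Numbered WT and NT libraries were checked for pairing: deviations from group means of same-numbered libraries correlated at 0.225, 0.0498, 0.0628 and 0.259. Libraries with different numbers correlated between -0.265 and 0.284. These ranges overlap, so the check does not decide whether the numbers pair animals, and the main fits used no pairing.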

Additional observations from a re-analysis of the deposited data

Results flagged for a closer look

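Among 24 checks of a member within a group of 4 to 8 libraries, 4 found a single library far from the others, measured by its gap to the nearest library as a share of the range. Chance flags about 1 in 20 such groups. The male library WT 1 was highest for *Odc1* at 98.94 CPM (next 64.48 CPM), for *Amd1* at 389.3 CPM (next 193.5 CPM) and for *Azin1* at 56.01 CPM (next 43.87 CPM). The library pacDNA-L9 5.3 D was highest for *Amd1* at 327.1 CPM (next 106.4 CPM). Each is the only male library of its group.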

How the results depend on the processing

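Of 3520 recomputed values of a member in a comparison, 25 lost a call, 6 gained one and 2 reversed with a call; the other 3487 kept their side of the threshold, and 169 values changed sign without a call either way; the cause was not tested for those that changed. In NT against WT 2 members were called, against 1 in female libraries only, 3 in the fit of only the groups compared (with *Sms*) and 3 with naming and sex terms (with *Amd1*). At 42.4 mg/kg against NT 2 were called, against 1 in the first set, 1 in the fit of only the groups compared and 1 with naming and sex terms, and 0 with the naming term, 0 in female libraries only and 0 in the first set with a sex term; leaving out 1 library gave 0 to 2. Female against male gave 3, and 0 in NT libraries only. The 2 reversals were those of *Sms* in the 6 libraries of the second set, which hold 1 free L9 library, free L9 C. There *Sms* was at -1.10 in free L9 against NT and at 1.15 in pacDNA-L9 5.3 against free L9. In all libraries these values were 0.09 and -0.03, and no member was called. Both reversals rest on free L9 C, whose spread is assumed to equal that of the others.

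Over all genes, calls ran from 389 to 1375 around 930 in NT against WT, from 149 to 803 around 550 at 42.4 mg/kg, from 2 to 19 around 12 at 21.2 mg/kg, from 3 to 538 around 165 for free L9, from 0 to 519 around 126 for pacDNA-L9 5.3 against free L9 and from 34 to 470 around 197 between the sexes. Comparisons with 0 calls reached at most 5. Leaving out 1 library gave, in the same order, 704 (without WT 3) to 1585 (without free L9 B), 126 (without 42.4 B) to 945 (without free L9 B), 2 (without 21.2 B) to 20 (without 21.2 A), 58 (without NT 7) to 1360 (without free L9 A), 13 (without 5.3 C) to 651 (without free L9 A) and 111 (without 21.2 A) to 393 (without free L9 B), and at most 6 where there were 0.

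With a replicate block over the numbers 1 to 4 shared by WT and NT, 2 members and 631 genes were called, against 2 and 680 for the same libraries without it. The block gave 0 genes in pacDNA-L9 5.3 against free L9, as without it, and 5 against 0 in pacDNA-L9 5.3 against pacDNA-Scr, with no member in either.

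Groups of 2 to 4 libraries limit the precision, sex and naming cannot be told apart from the 42.4 mg/kg dose in full, and the widest errors are those of *Smox* and *Amd1*.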
